A study of Mus musculus with 48 samples.

Results

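Liver transcriptomes of female C57BL/6J mice on a low-fat diet (LFD) were compared between 6 animals given a mixture of dioxin-like compounds and 6 given vehicle. These 12 libraries were taken by their labels from 48 that cross sex, diet and exposure in 8 groups of 6 livers. Weekly doses over 12 weeks combined 10 ng/kg of the dioxin TCDD, 80 ng/kg of the furan PeCDF and 140 ng/kg of the biphenyl PCB126. The 2 groups shared strain, sex, diet and tissue, and differed by the labels only in exposure. The sources used here give neither the animals' age nor what the vehicle was, and 1 dose of 1 mixture was tested, so no compound can be set apart. High-fat diet (HFD) females and LFD males of the same strain, given vehicle or the same mixture, served for tests of differences between mixture effects. All 48 libraries, HFD males included, also entered the main fit and set its estimate of the spread between livers. Of 49315 genes in the table, 13580 reached 1 TPM (a level corrected for transcript length and library total) in at least 6 of the 12 libraries and were tested.

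Dioxin-like compounds bind the aryl hydrocarbon receptor (AhR), which waits in the cytosol with heat shock protein chaperones. Bound AhR enters the nucleus, pairs with ARNT and attaches to DNA elements with the core GCGTG. In liver it is best known for switching on the cytochrome P450 genes of the Cyp1 family, together with conjugation enzymes that make foreign compounds soluble. Higher doses of TCDD than those given here are known for fatty liver and wasting, in which genes of lipid and sugar metabolism change.

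The labels were checked first. Xist exceeded Ddx3y in every library labelled female and Ddx3y exceeded Xist in every male one (48 of 48), and hepatocyte genes led the tissue, with Alb (albumin) between 71820 and 117200 TPM in the 12 libraries. Between 13362 and 14713 genes reached 1 TPM per library, and TPM keeps no sequencing depth. Both libraries numbered replicate 3 stood apart by transcripts of other tissues. Skeletal muscle genes summed to 11139 TPM in replicate 3 of the vehicle group and 2345 TPM in replicate 3 of the mixture group, against 54.3 to 87.6 TPM in the other 10. Adrenal cortex genes summed to 2118 TPM in replicate 3 of the mixture group, against 153 to 192 TPM in the other 11, where the steroidogenic enzyme Cyp11b1 stood at 0.50 TPM or less. That library also held 46 TPM of the adipocyte gene Adipoq and 14713 genes at 1 TPM. Kidney genes summed to 27 TPM in vehicle replicate 2 and 29.8 TPM in mixture replicate 4, and to at most 1.35 TPM elsewhere, with Kap, a gene of kidney tubules, at 21.7 and 24.3 TPM. Counts of genes in a list are therefore given with all 12 libraries and without replicate 3 of both groups. In a bulk liver sample, fewer cells of a type and less RNA per cell cannot be told apart.

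**Figure D1:**
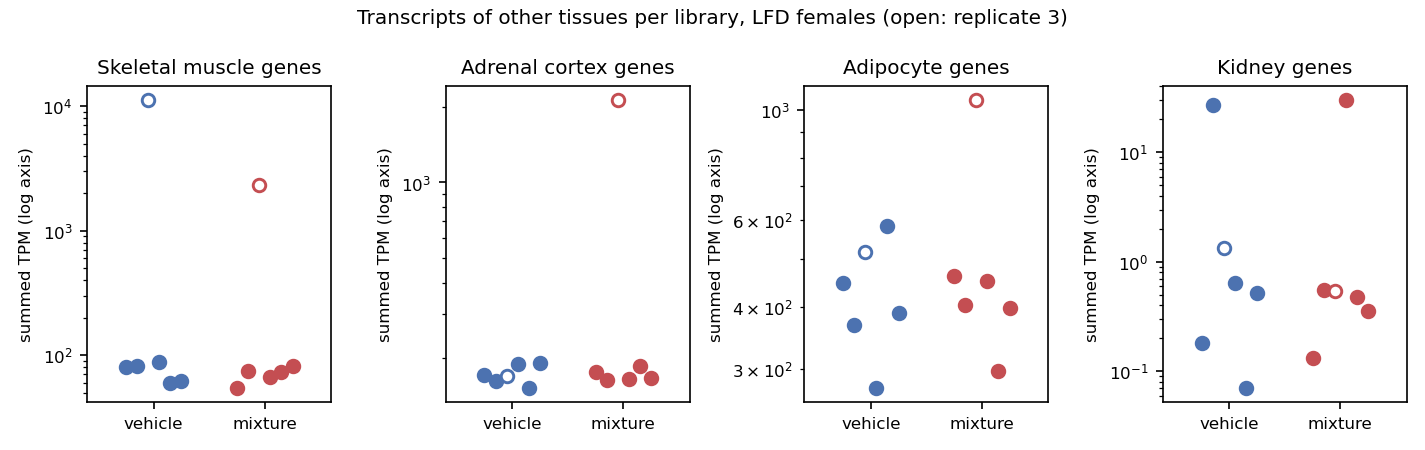
Summed TPM of skeletal muscle, adrenal cortex, adipocyte and kidney genes in each library on log axes. Replicate 3 (open circles) is highest for muscle genes in both groups (11139 and 2345 TPM) and for adrenal cortex genes in the mixture group (2118 TPM), and kidney genes are highest in vehicle replicate 2 and mixture replicate 4.

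With all 12 libraries, 8 genes were higher in exposed livers at a Benjamini-Hochberg adjusted p under 0.05 with limma (0.0589% of the genes tested) and 0 were lower. They were the P450 genes Cyp1a1 and Cyp1a2, Htatip2, Cyb5a, Slc46a3, Rabggta, BC025446 and Gm21049. At an unadjusted p under 0.05, 957 genes were higher (7.05%) and 428 lower (3.15%). Without replicate 3 of both groups 4 genes passed (0.0295%), namely Cyp1a1, Cyp1a2, Htatip2 and Cyb5a, and the unadjusted counts were 733 higher (5.4%) and 662 lower (4.87%). Groups of 6 libraries that did not overlap at all were found for 58 higher genes (0.427%) and 16 lower genes (0.118%), and without replicate 3 for 134 higher (0.987%) and 78 lower (0.574%). Smaller groups separate more readily by chance, so the rise without replicate 3 cannot be read as differences that this replicate had hidden. The split between higher and lower depended on the scaling: with a trimmed-mean (TMM) scaling of the libraries it was 644 higher against 769 lower, and 3 genes passed.

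The 250 bases before the RefSeq start of the 3 genes that passed in all 24 alternative settings are printed to show where the AhR core lies (GRCm38.p6, on the gene's own strand, 5′ to 3′). Capitals mark GCGTG or its reverse complement CACGC. The windows are chr9:57697363-57697612 on the plus strand, chr9:57683656-57683905 on the minus strand, and chr7:49758856-49759105 on the plus strand.

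Cyp1a1: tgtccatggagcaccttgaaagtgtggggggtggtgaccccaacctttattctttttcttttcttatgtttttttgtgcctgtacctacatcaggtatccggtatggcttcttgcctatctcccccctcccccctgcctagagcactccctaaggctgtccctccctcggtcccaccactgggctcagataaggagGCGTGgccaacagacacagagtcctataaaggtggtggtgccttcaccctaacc

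Cyp1a2: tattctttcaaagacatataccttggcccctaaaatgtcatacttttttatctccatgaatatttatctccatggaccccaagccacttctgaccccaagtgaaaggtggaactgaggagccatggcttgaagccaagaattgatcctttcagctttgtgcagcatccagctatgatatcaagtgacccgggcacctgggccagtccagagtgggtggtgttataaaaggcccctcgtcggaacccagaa

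Htatip2: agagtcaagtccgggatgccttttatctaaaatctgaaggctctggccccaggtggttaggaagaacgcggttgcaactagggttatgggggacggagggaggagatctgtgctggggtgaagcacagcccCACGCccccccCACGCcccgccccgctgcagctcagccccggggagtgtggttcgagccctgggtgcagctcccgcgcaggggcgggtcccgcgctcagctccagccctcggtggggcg

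The window of Cyp1a1 held 1 core, starting 54 bases before the start, and that of Htatip2 held 2, starting 119 and 108 bases before it. Htatip2 had 2 RefSeq starts, of which the more upstream was taken. The Cyp1a1 window lies inside the GENCODE span of the gene given below, which begins farther upstream. Neither the window of Cyp1a2 nor that of Slc46a3 (on chromosome 5, minus strand) held these letters, which says nothing of sites farther away. The core stood on either strand in 28.2% of 32851 promoter windows of this length in the RefSeq table, and in 43% of the 12338 windows of genes tested.

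The AhR receptor complex itself was not called. Ahr, the receptor, ranged from 12.3 to 23.7 TPM in vehicle livers (median 20.3) and from 12.9 to 21.2 TPM in exposed livers (median 17.4). Arnt, its partner, ranged from 12.1 to 15.2 TPM (median 13.6) and from 10.6 to 15.7 TPM (median 13.1). Both genes, named here for their role, overlapped fully between the groups. Of 15 listed members of the complex and its co-regulators, 3 were higher and 2 lower at an unadjusted p under 0.05, with a median log2 difference of −0.04 beside 0.02 over all genes. The lower ones were the acetyltransferase Ep300 (−0.23) and the co-activator Ncoa1 (−0.19), and the higher ones included the AhR co-chaperone Ptges3 (0.20). Without replicate 3 the counts were 0 higher and 2 lower.

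Among the receptor's targets, Cyp1a1, a P450 that oxidizes polycyclic aromatic compounds (chromosome 9, GRCm38, 57687928 to 57703824), ranged from 1.08 to 2.42 TPM in vehicle livers (median 1.72) and from 62.0 to 108 TPM in exposed livers (median 88.4). No vehicle library came near any exposed library. The log2 difference was 4.93 (SE 0.20, limma adjusted p = 1.50e-22) with 12 libraries and 5.00 without replicate 3. Its neighbour Cyp1a2, the P450 that also binds dioxins in liver (57676937 to 57683703, opposite strand), ranged from 262 to 415 TPM (median 308) and from 1856 to 2639 TPM (median 2375). Here too the groups were far apart, and the log2 difference was 2.85 (SE 0.13, limma adjusted p = 2.30e-21). Cyp1a2 thus had the higher level per transcript length in both groups, and Cyp1a1 the larger difference.

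Htatip2, an oxidoreductase-like protein also known as TIP30 (chromosome 7, GRCm38, 49759115 to 49773975), ranged from 23.8 to 35.7 TPM in vehicle livers (median 33.7) and from 52.8 to 61.9 TPM in exposed livers (median 59.5). The groups were separate, and vehicle replicate 1 was lowest, with the next library at 32.8 TPM. Its log2 difference was 0.83 (SE 0.10, limma adjusted p = 2.47e-07). Cyb5a, cytochrome b5, which passes electrons to P450 enzymes, ranged from 477 to 595 TPM (median 503) and from 625 to 889 TPM (median 728). All 6 exposed livers lay above the vehicle livers, with mixture replicate 2 highest and mixture replicate 3 lowest of them. Its log2 difference was 0.48 (SE 0.09, limma adjusted p = 0.00691), and it lost its call without mixture replicate 2 (log2 0.42, adjusted p = 0.0563), with TMM scaling (adjusted p = 0.139) and with only the 12 libraries in the fit (adjusted p = 0.200).

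Slc46a3, a lysosomal membrane transporter (chromosome 5, 147878437 to 147894815), ranged from 15.7 to 28.3 TPM in vehicle livers (median 24.6) and from 33.1 to 49.5 TPM in exposed livers (median 38.7). The groups were separate, and replicate 1 was lowest in each. Its log2 difference of 0.74 (SE 0.15, limma adjusted p = 0.0422) was 0.75 without replicate 3 (adjusted p = 0.126). Rabggta, the alpha subunit of the enzyme that attaches lipid anchors to Rab proteins, ranged from 22.1 to 26.4 TPM (median 25.4) and from 28.5 to 36.7 TPM (median 33.0). All exposed livers were higher, replicate 3 was lowest in each group, and the log2 difference was 0.36 (SE 0.08, limma adjusted p = 0.0477, or 0.126 without replicate 3). BC025446, a protein-coding gene on chromosome 15, differed by 0.34 (limma adjusted p = 0.0246) with 5 of 6 exposed livers above all vehicle livers. Gm21049, an unprocessed pseudogene on chromosome 5 whose reads may come from a near-identical copy, differed by 0.90 (limma adjusted p = 0.0477). Neither of these passed without replicate 3 (adjusted p = 0.126 and 0.0566).

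**Figure D2:**
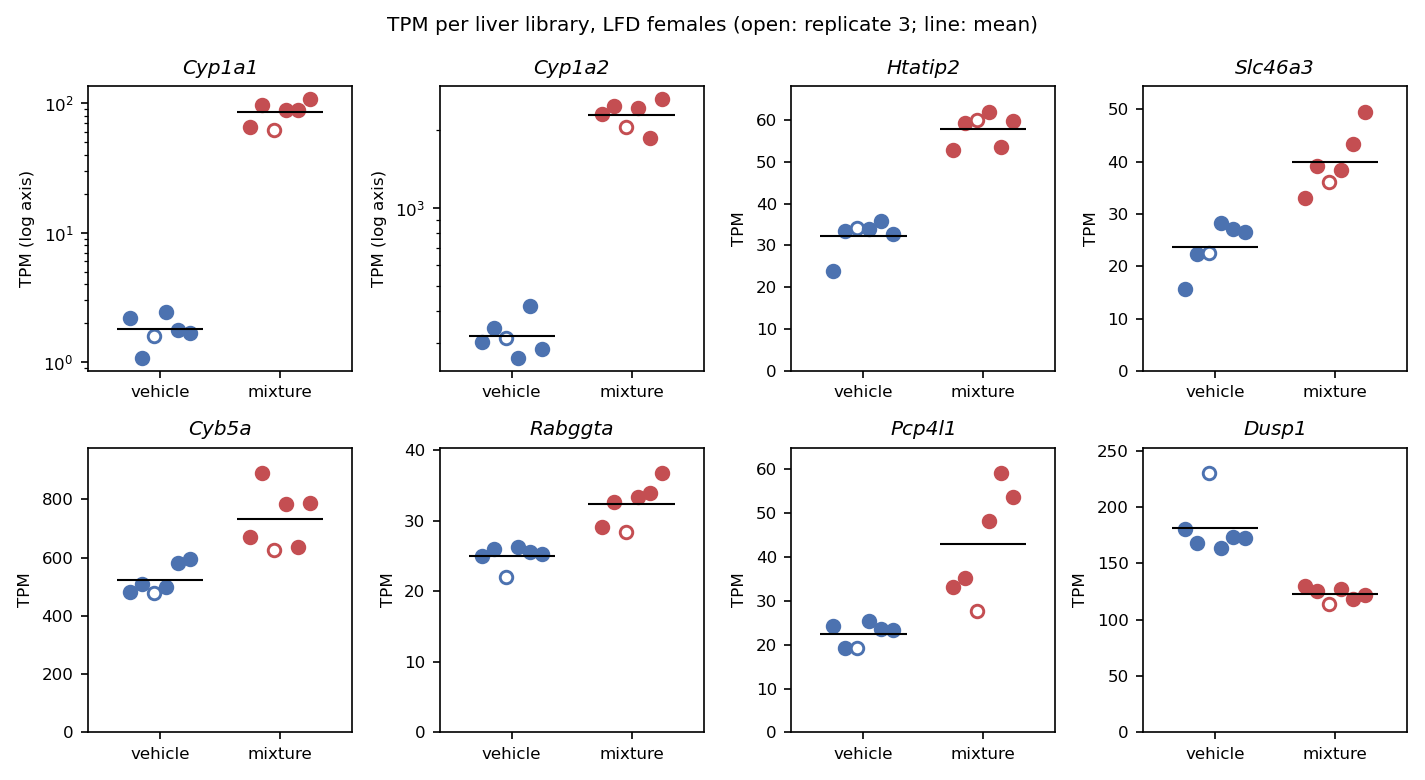
TPM of 8 genes in each of the 6 vehicle and 6 mixture libraries, with group means as lines, open circles for replicate 3 and log axes for Cyp1a1 and Cyp1a2. The groups do not overlap in any of the 8 genes, all higher with the mixture except Dusp1, which is lower, and Pcp4l1 and Dusp1 did not pass the adjusted test across 48 libraries.

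Beyond these genes the differences of listed AhR targets were mostly small. Of 26 listed targets, 21 passed the level filter. Of those, 5 were called higher and 0 lower, 8 were higher and 1 lower at an unadjusted p under 0.05, and 6 had separate groups. Without replicate 3 these counts were 4 called higher, 7 higher and 1 lower at the unadjusted threshold, and 6 separate. Over all genes tested, 0.0589% were called higher, 7.05% were higher at the unadjusted threshold and 0.427% were higher with separate groups, with 12 libraries. The list was written with earlier results of these data known, so its counts are no independent support. The median log2 difference of the 21 targets was 0.21 (0.17 without replicate 3), beside 0.02 (−0.01) over all genes. A gene could pass the filter through its exposed livers alone. The other 5 stayed low in both groups: the AhR repressor Ahrr reached at most 0.10 TPM, Aldh3a1 0.18, Fabp12 0.10, Gsta1 0.97 and the P450 gene Cyp1b1 2.67 TPM in any library.

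Pcp4l1, a small relative of the calmodulin-binding protein Pcp4, ranged from 19.2 to 25.3 TPM in vehicle livers (median 23.4) and from 27.7 to 59.0 TPM in exposed livers (median 41.7). Its groups were separate, with replicate 3 lowest in each, but the log2 difference of 0.86 (SE 0.28) did not pass in limma (adjusted p = 0.290). Ugt1a9, a bilirubin and drug glucuronidation family member, ranged from 13.1 to 30.8 TPM (median 19.1) and from 27.3 to 49.1 TPM (median 34.1), with 4 exposed livers above all vehicle livers. Its log2 difference was 0.81 (SE 0.27, limma adjusted p = 0.290). The Ugt1a genes share their last exons, so reads can be split between them: Ugt1a6a stood at 0.25, Ugt1a6b at −0.26 and Ugt1a5 at −0.66 (limma adjusted p = 0.453, 0.465 and 0.451).

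Among the remaining targets, Nqo1, a quinone reductase, had a median of 16.5 TPM in vehicle livers and 19.7 TPM in exposed livers, with 3 exposed livers above all vehicle livers and a log2 difference of 0.21 (limma adjusted p = 0.630). Tiparp, the ADP-ribosyltransferase that feeds back on AhR, had overlapping ranges of 4.38 to 6.64 and 3.38 to 8.15 TPM and a difference of −0.06. Fmo2 (−0.15), Xdh (−0.11), Ugdh (−0.09) and Cystm1 (−0.14) were below 0, and Nfe2l2 (0.20), Pmm1 (0.34), Tnfaip2 (0.19), Cyp2a5 (0.10) and Cd36 (0.08) above it. The signs of Tiparp, Cystm1, Cyp2a5 and Cd36 turned when a single library was left out. None of these 11 genes passed at the adjusted threshold in limma (lowest adjusted p = 0.497, of Pmm1), and the groups overlapped for each.

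Lists of other xenobiotic receptors and of electron supply held few genes at the unadjusted threshold, and their counts are read beside the 7.05% higher and 3.15% lower over all genes tested. Nr1i3, the nuclear receptor CAR that controls Cyp2b genes, ranged from 65.0 to 109 TPM in vehicle livers (median 104) and from 118 to 206 TPM in exposed livers (median 138). The groups did not overlap, and the log2 difference was 0.59 (SE 0.20, limma adjusted p = 0.290). Of 30 measured CAR and PXR targets, 2 were higher and 1, the canalicular exporter Abcc2 (−0.25), was lower at an unadjusted p under 0.05, with a median of 0.03 (1 higher, 1 lower and −0.02 without replicate 3). Of 29 Nrf2 genes, 1 was higher and 0 lower (1 and 2 without replicate 3): Osgin1, an oxidative stress gene, ranged from 9.83 to 45.9 TPM (median 18.3) and from 28.4 to 55.2 TPM (median 42.4), with vehicle replicate 1 inside the exposed range. Its log2 difference was 1.02 (limma adjusted p = 0.260). Of 17 genes for P450 redox partners and haem synthesis, Cyb5a alone passed at an unadjusted p under 0.05, also without replicate 3.

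The mixture's effect was set against that in HFD females and in LFD males by tests of the difference itself. The log2 difference of Cyp1a1 was 4.93 in LFD females and 1.18 in HFD females, and these effects differed by 3.75 (SE 0.29, limma interaction adjusted p = 2.38e-12). Cyp1a1 was the only 1 of 13580 genes whose effect differed between the diets (0.00736%), while 598 did at an unadjusted p under 0.05 (4.4%). Levels show the size: exposed HFD females held 2.24 to 4.73 TPM of Cyp1a1, all above their own vehicle group at 0.53 to 1.31 TPM. Cyp1a2 stood at 2.85 and 2.63 in LFD and HFD females, a difference of 0.21 (SE 0.18, adjusted p = 0.987 in limma). Htatip2 stood at 0.83 and 0.46, a difference of 0.37 (SE 0.14, unadjusted p = 0.00919 in limma, adjusted p = 0.987).

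No gene had a mixture effect that differed between LFD females and LFD males at the adjusted threshold in limma (0 of 13580). At an unadjusted p under 0.05 the effect differed for 581 genes (4.28%). Cyp1a1 stood at 4.93 in females and 5.60 in males, a difference of −0.66 (SE 0.29, limma adjusted p = 0.999). Cyp1a2 differed the other way, with 2.85 in females and 2.24 in males, a difference of 0.61 (SE 0.18, unadjusted p = 0.00166 in limma, adjusted p = 0.999). Vehicle females held less Cyp1a2, 262 to 415 TPM, than vehicle males at 549 to 774 TPM. Slc46a3 stood at 0.74 and 0.81, a difference of −0.08 (SE 0.22).

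Lists of lipid synthesis genes had medians below 0, with no gene called. Over all genes tested, 7.05% were higher and 3.15% lower at an unadjusted p under 0.05. Without replicate 3 these shares were 5.4% and 4.87%. Of the 13580 genes, 7428 stood above 0 with 12 libraries and 6579 without replicate 3. Counts here and in the lists below are read beside these values. Of 27 measured genes of de novo lipogenesis, 0 were higher and 8 lower at an unadjusted p under 0.05 (0 and 10 without replicate 3), and the median log2 difference was −0.30 (−0.39). The lower count rested on single livers: it was 0 without mixture replicate 2 or 6, 1 without vehicle replicate 3 or 4, 4 without vehicle replicate 2 or mixture replicate 1, and 7 to 11 without any other single library, with medians of −0.41 to −0.23. Acly, which makes cytosolic acetyl-CoA, ranged from 128 to 581 TPM in vehicle livers (median 246) and from 52.8 to 494 TPM in exposed livers (median 122). Of the exposed livers, 4 lay below all vehicle livers, whereas replicate 3 of each group was the highest of its group. The log2 difference was −0.94 (SE 0.42, limma adjusted p = 0.446, or −1.08 without replicate 3). Acaca, the enzyme that commits acetyl-CoA to fatty acids, stood at −0.91, the elongase Elovl6 at −0.91 and the glycolytic Pklr at −0.57 (limma adjusted p = 0.409, 0.486 and 0.446). Fasn, the fatty acid synthase, ranged from 269 to 1051 TPM and from 85.0 to 943 TPM, a difference of −0.94 (limma adjusted p = 0.524). Without mixture replicate 2, Elovl6 and Fasn both stood at −0.60. Srebf1, the transcription factor of these genes, had a median of 110 TPM in both groups. Fasn and Srebf1 were named for their role.

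Cholesterol synthesis genes showed the lowest median in the plot of list medians, which leaves out lists of tissues outside the liver. Of 25 measured, 24 stood below 0, 2 were lower at an unadjusted p under 0.05 (8 without replicate 3) and 0 were higher, with a median of −0.34 (−0.46). Leaving out 1 library gave 1 to 15 lower genes, with 13 without vehicle replicate 6, 15 without mixture replicate 3, 8 without mixture replicate 5 and 1 to 3 otherwise, and the median was −0.18 without mixture replicate 2. Dhcr7, the last step of the pathway, ranged from 26.2 to 71.0 TPM in vehicle livers (median 34.7) and from 14.7 to 52.7 TPM in exposed livers (median 23.8). In 3 exposed livers Dhcr7 lay below all vehicle livers, and in the other 3 within the vehicle range. The log2 difference was −0.55 (SE 0.26, limma adjusted p = 0.468). Idi1, the isopentenyl diphosphate isomerase, and Sqle, the squalene epoxidase, both stood at −0.64 (limma adjusted p = 0.531 and 0.545). Without mixture replicate 2 they stood at −0.28 and −0.34, and without vehicle replicate 4 at −0.37 and −0.40.

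**Figure D3:**
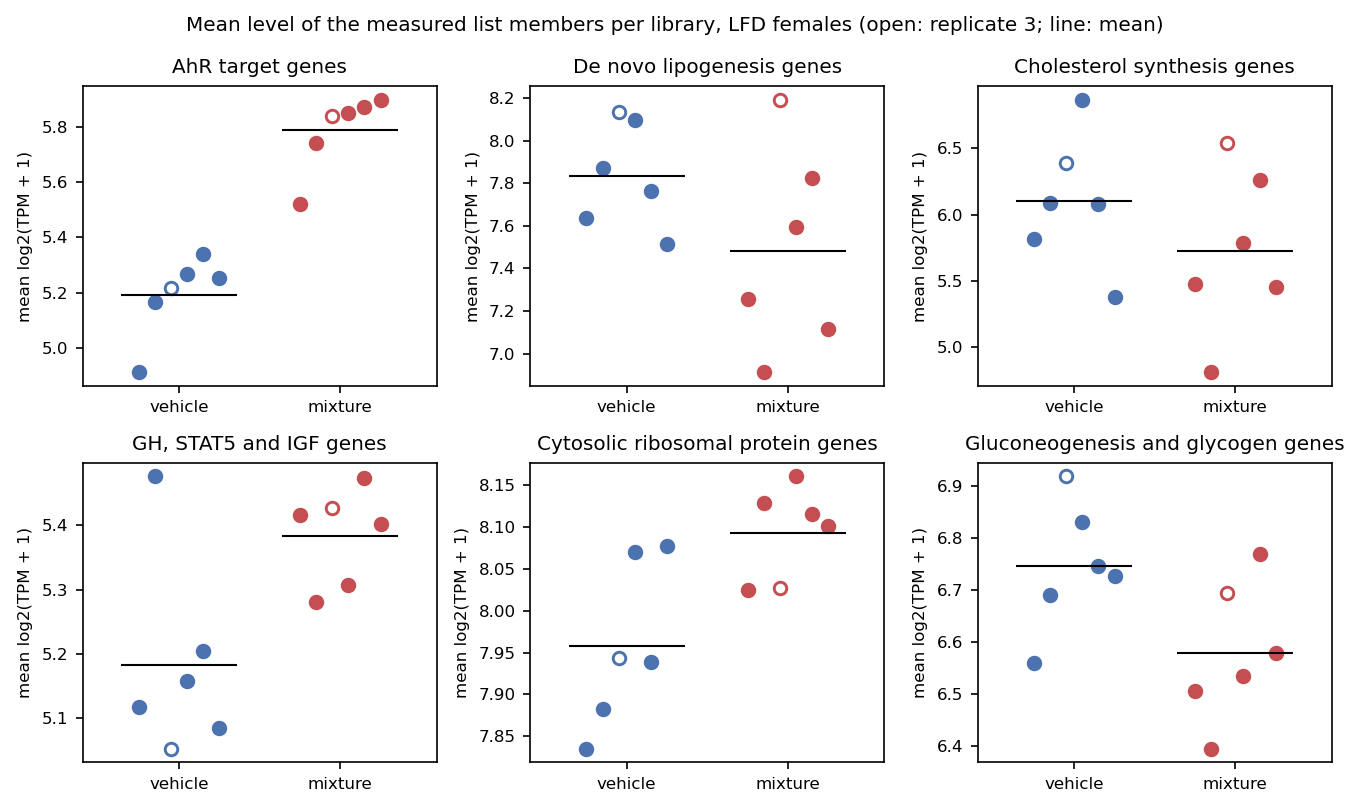
Mean log2(TPM + 1) over the measured members of 6 gene lists in each library, with group means as lines and open circles for replicate 3. The AhR list is separate between groups (4.91 to 5.34 in vehicle, 5.52 to 5.90 in mixture), while the lipogenesis and cholesterol lists overlap, lowest in mixture replicate 2 (6.91 and 4.81) and highest in the mixture group in replicate 3 (8.19 and 6.54). The AhR mean includes Cyp1a1 and Cyp1a2, with log2 differences of 4.93 and 2.85, whereas the median difference of its 21 genes was 0.21. Its separation is therefore no sign of a shift shared by the whole list.

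Fatty acid oxidation and lipoprotein lists had medians slightly above 0. Of 40 PPARa and fatty acid oxidation genes, 33 were above 0, beside 7428 of 13580 over all genes tested. Among the 40, 3 were higher and 2 lower at an unadjusted p under 0.05, near the shares over all genes (7.05% and 3.15%). The median was 0.09, and without replicate 3 these values were 4, 2 and 0.09. The higher count was 1 without vehicle replicate 1 or 3 or mixture replicate 2 or 4, and 5 to 7 without vehicle replicate 2 or 5 or mixture replicate 3 or 5. Acaa1a, a peroxisomal thiolase, stood at 0.34, and Ppara, the receptor itself, at −0.38 (limma adjusted p = 0.325 and 0.385). Of 20 apolipoprotein and lipoprotein assembly genes, 4 were higher and 0 lower, with a median of 0.08 (4, 0 and 0.07 without replicate 3): Apoc1 (0.28), Apoc3 (0.20), Apoc4 (0.17) and Apoa2 (0.23). The count of 4 was 1 or 2 without vehicle replicate 1, 2, 3 or 5 or mixture replicate 1, 2, 4 or 6. None of these 6 genes passed the adjusted test in limma.

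Sugar and amino acid genes were not called in either direction. Of 27 gluconeogenesis and glycogen genes, 0 were higher and 3 lower at an unadjusted p under 0.05, with a median of −0.18 (−0.16 without replicate 3): Pygl, liver glycogen phosphorylase (−0.31), Slc2a2, the glucose transporter GLUT2 (−0.22), and Pcx, pyruvate carboxylase (−0.26). Without mixture replicate 2 the lower count was 0, and without any other single library it was 2 to 5. Pck1, a rate-limiting enzyme of glucose synthesis, ranged from 3293 to 4472 TPM in vehicle livers and from 2821 to 3971 TPM in exposed livers. Its difference of −0.24 did not pass (SE 0.18, limma adjusted p = 0.661). Of 28 urea cycle and amino acid catabolism genes, 1 was higher and 3 lower with a median of −0.04, and without replicate 3 the counts turned to 3 higher and 1 lower. Tat, the glucocorticoid-responsive tyrosine aminotransferase, ranged from 2921 to 5418 TPM (median 4105) and from 1621 to 3851 TPM (median 2182). In 5 exposed livers Tat lay below all vehicle livers, and in mixture replicate 5 within their range. The log2 difference of Tat was −0.83 (SE 0.24, limma adjusted p = 0.231).

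Of 19 measured ATF4 stress response genes, 0 were higher and 2 lower at an unadjusted p under 0.05 with and without replicate 3, with medians of 0.05 and −0.03. Among them Ddit4, an mTOR inhibitor induced by stress and glucocorticoids, ranged from 40.8 to 198 TPM in vehicle livers (median 163) and from 26.4 to 63.7 TPM in exposed livers (median 37.7), a log2 difference of −1.62 (SE 0.48, limma adjusted p = 0.231). Vehicle replicate 1 lay within the exposed range and vehicle replicate 5 just above it, at 68.7 TPM. Dusp1, a phosphatase of MAP kinases chosen after its values were seen, ranged from 164 to 230 TPM (median 173) and from 114 to 130 TPM (median 124). Its groups were separate, with vehicle replicate 3 highest. The difference of Dusp1 was −0.55 (SE 0.19, limma adjusted p = 0.305) in the fit across 48 libraries, and it was called when the fit held only the 12 libraries (adjusted p = 0.0331) or only the 10 without replicate 3 (adjusted p = 0.0152).

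Growth arrest genes went both ways. Of 18 measured, 2 were higher and 3 lower at an unadjusted p under 0.05 (1 and 2 without replicate 3). Gadd45a stood at 0.81, the cell cycle inhibitor Cdkn1a at −0.73, the p53-induced Trp53inp1 at −0.52 with separate groups, and Pmaip1 at −0.36 (limma adjusted p = 0.290, 0.451, 0.458 and 0.426). Of 24 heat shock and ER chaperone genes, Hspb1 (0.48) and Hspe1 (0.26) were the 2 higher ones, against 1 lower (2 and 2 without replicate 3).

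Genes of the growth hormone axis and sex-biased genes were compared next, since the pattern of growth hormone release sets sex-biased expression in liver. Of 17 growth hormone, STAT5 and IGF genes, 4 were higher and 0 lower at an unadjusted p under 0.05 (3 and 0 without replicate 3), with a median of 0.21 (0.15). They were Igfals (0.53), Igf1 (0.32), the feedback inhibitor Socs2 (0.73) and the female-biased repressor Cux2 (0.71), and none was past the adjusted threshold in limma (adjusted p = 0.290 to 0.439). Cux2 stood at 0.29 without vehicle replicate 1, where it was at 1.72 TPM beside a vehicle median of 14.2 TPM, and Igf1 at 0.21 without vehicle replicate 3, which left 2 higher genes. Among 25 male-biased genes, 1 was higher and 3 lower (0 and 4 without replicate 3). Mup7, a major urinary protein, ranged from 11.5 to 42.9 TPM in vehicle livers (median 34.3) and from 3.19 to 10.6 TPM in exposed livers (median 7.62). The groups did not overlap, and the log2 difference was −2.02 (SE 0.69, limma adjusted p = 0.305). Mup20 stood at −0.94. The third, Cyp4a12a, also on the fatty acid oxidation list, passed the level filter only through its vehicle livers (1.15 to 1.54 TPM, against 0.13 to 0.89 TPM), so its place in either count says nothing further. Mup and Cyp4a12 genes have near-identical copies, so their reads may be shared. Of 33 female-biased genes, 1 was higher and 0 lower (0 and 1 without replicate 3).

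Zonation and cell type lists were counted in the same way. Of 22 pericentral hepatocyte genes, which include Cyp1a2, 5 were higher and 0 lower at an unadjusted p under 0.05 (3 and 0 without replicate 3, 8 and 0 without mixture replicate 5, 3 and 0 without vehicle or mixture replicate 6), among them the Wnt-responsive Tbx3 (0.59) and Sp5 (0.41). Of 20 periportal genes, 1 was higher and 1, Cps1 (−0.40), lower (1 and 0 without replicate 3). Kupffer cell and macrophage genes had a median of −0.20 (−0.24 without replicate 3, −0.09 without vehicle replicate 5), with 16 of 19 below 0 and Cd163, the haemoglobin scavenger receptor, at −0.72 (limma adjusted p = 0.289). Their summed level ranged from 1002 to 2337 TPM in vehicle livers and from 868 to 1565 TPM in exposed livers. Liver endothelial genes had a median of −0.12, with 0 higher and 2 lower, Stab2 at −0.28 and Cdh5 at −0.31 (also 0 and 2 without replicate 3). Of 27 stellate cell and matrix genes, 13 stood above 0, and the median was −0.004 (−0.008 without replicate 3). Hgf (−0.39) and Reln (−0.40) of this list were lower at the same unadjusted threshold, and 2 were without replicate 3. The adhesion molecule Vcam1 stood at −0.69 (limma adjusted p = 0.249), in a list of chemokines and inflammatory genes with 11 of 19 above 0 and a median of 0.04. Without replicate 3, 9 of 19 stood above 0 and the median of this list turned to −0.04. At an unadjusted p under 0.05, 0 of its genes were higher and 1 lower (0 and 3 without replicate 3). Interferon, antigen presentation, acute phase and circadian lists had 0 genes at an unadjusted p under 0.05 with all 12 libraries, of 40, 17, 26 and 18 measured (2 interferon genes were lower without replicate 3).

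**Figure D4:**
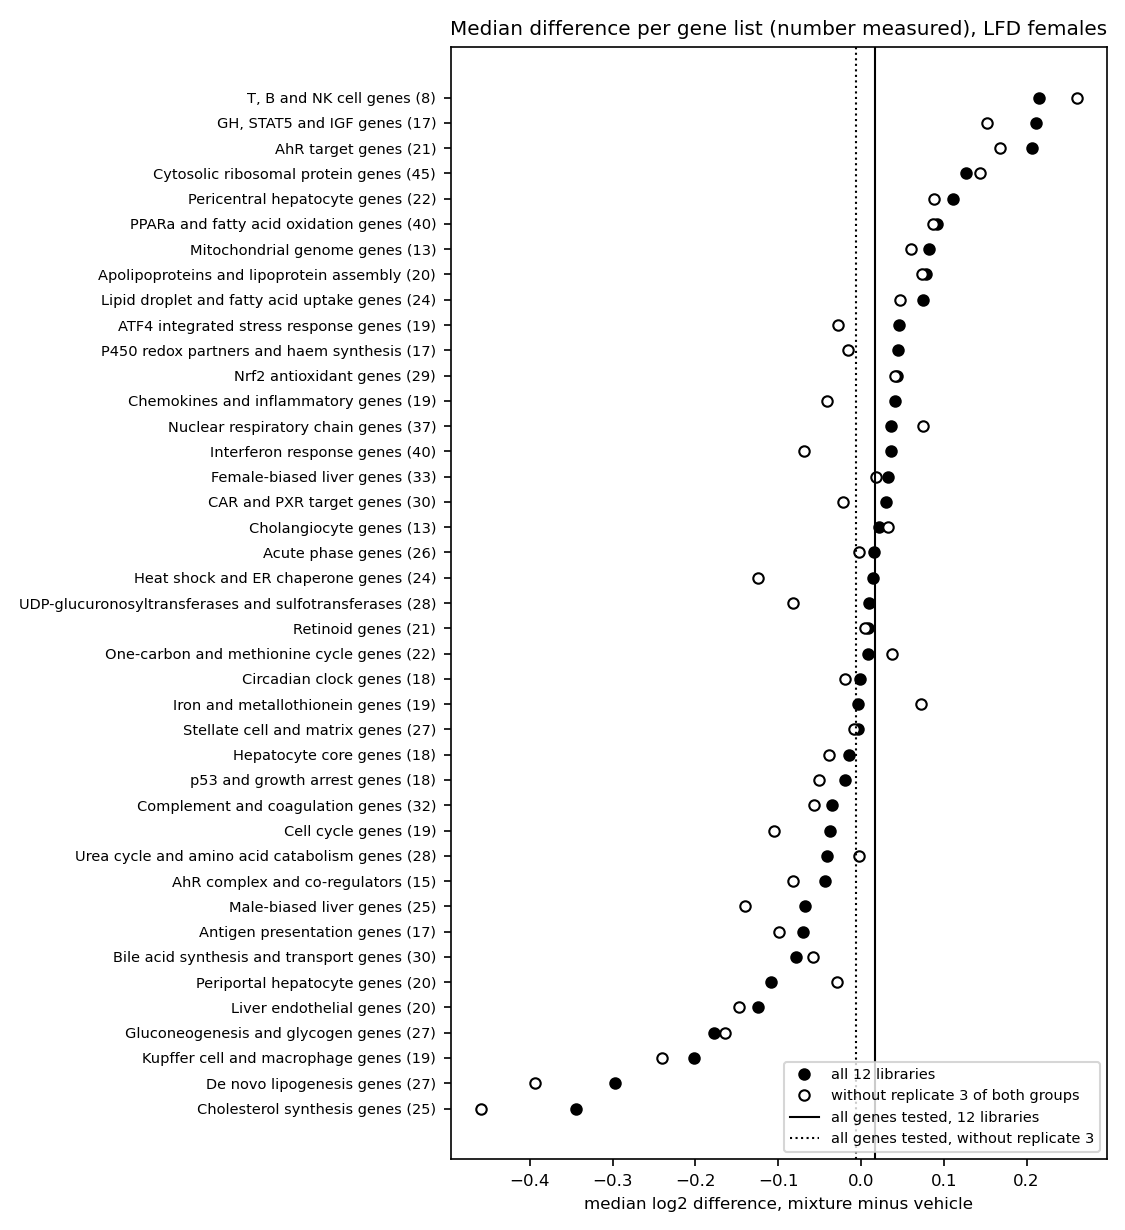
Median log2 difference (mixture minus vehicle) of each gene list with 8 or more measured members, other than lists of tissues outside the liver, with all 12 libraries (filled) and without replicate 3 of both groups (open), and lines for all genes tested. The cholesterol (−0.34 and −0.46) and lipogenesis (−0.30 and −0.39) lists lie lowest of those drawn (skeletal muscle genes, not drawn, had −0.44 and −0.11), and the T, B and NK cell list (8 of 20 measured, at low levels) at 0.22 and the AhR and growth hormone lists at 0.21 lie highest with all libraries.

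Cytosolic ribosomal protein genes stood higher together by a small amount. All 45 measured had a log2 difference above 0, with 17 higher and 0 lower at an unadjusted p under 0.05 (14 and 0 without replicate 3, 11 and 0 without vehicle replicate 1 or mixture replicate 4) and a median of 0.13 (0.14). Rpl23 ranged from 254 to 293 TPM in vehicle livers (median 267) and from 290 to 336 TPM in exposed livers (median 317), a difference of 0.21 (SE 0.06, limma adjusted p = 0.228). Of these 45 genes 40 lay in the shortest of 4 equal classes of genes by span on the genome.

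Gene span moved with the comparison across all genes. The median log2 difference was 0.10 in the shortest class (up to 6.9 kb), 0.05 and 0.00 in the middle classes and −0.06 in the longest (0.09, 0.03, −0.02 and −0.09 without replicate 3). At an unadjusted p under 0.05, 406 genes were higher and 38 lower in the shortest class, against 70 higher and 241 lower in the longest. By library, the mean log2 level of the shortest class minus that of the longest ranged from −0.08 to 0.06 in vehicle livers (median 0.01) and from 0.03 to 0.34 in exposed livers (median 0.12). The groups overlapped, and mixture replicates 2 (0.34) and 4 (0.24) were highest. By the same measure, vehicle HFD females ranged from −0.013 to 0.25 (median 0.115). Vehicle males ranged from −0.054 to 0.266 on LFD (median 0.048) and from −0.034 to 0.096 on HFD (median 0.048). Livers without the mixture thus also reached values within the exposed range. Without mixture replicate 2, 984 genes in place of 1385 (10.2%) were at an unadjusted p under 0.05. Of the lipogenesis genes 11 of 27 lay in the longest class and 2 in the shortest, while of the cholesterol genes 1 of 25 lay in each. Of the genes called, Cyp1a2, Rabggta, BC025446 and Gm21049 lay in the shortest class and the others in the middle classes. The part of gene span in the results for lists and for single genes was not tested.

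**Figure D5:**
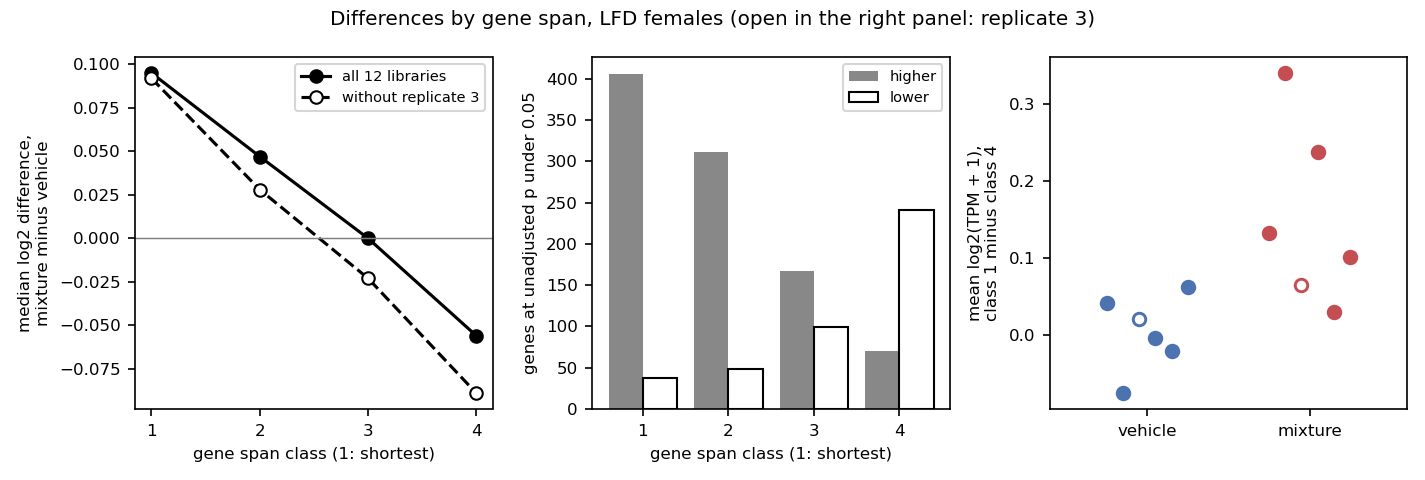
Left and middle panels: median log2 difference, and number of genes at an unadjusted p under 0.05, by class of gene span (4 equal classes, 1 is the shortest). Right: mean log2(TPM + 1) of class 1 minus class 4 in each library, which lies between −0.08 and 0.06 in vehicle and between 0.03 and 0.34 in mixture libraries, highest in mixture replicate 2.

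Single genes outside these lists came close to the threshold. Alkbh2, a DNA repair demethylase, ranged from 3.24 to 5.70 TPM in vehicle livers (median 3.42) and from 4.72 to 8.73 TPM in exposed livers (median 6.16), a difference of 0.58 (SE 0.13, limma adjusted p = 0.0545). Gjb2, the gap junction protein connexin 26, ranged from 214 to 289 TPM (median 239) and from 286 to 352 TPM (median 334), with 5 exposed livers above all vehicle livers. Its difference was 0.37 (SE 0.08, limma adjusted p = 0.0694). Ube2r2, a ubiquitin-conjugating enzyme, stood at 0.22 and Tmem86b, a lysoplasmalogenase, at 0.36 (limma adjusted p = 0.0901 and 0.228). By gene span, Alkbh2, Gjb2 and Tmem86b lay in the shortest class and Ube2r2 in the longest.

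The lower genes with the smallest p all had limma adjusted p of 0.178 or more with 12 libraries. Arhgef3, a guanine nucleotide exchange factor, ranged from 27.3 to 35.5 TPM in vehicle livers and from 19.5 to 28.4 TPM in exposed livers, with 5 of 6 exposed livers below all vehicle livers and a difference of −0.36. Slc25a32, a mitochondrial folate and FAD carrier, stood at −0.55, the inositol kinase Ppip5k2 at −0.45, Susd6 at −0.48, Gin1 at −0.48, the copper pump Atp7a at −0.38, Lrba at −0.37 and Pag1 at −0.42. Without replicate 3, only Arhgef3, Slc25a32 and Atp7a stayed among the 8 lower genes with the smallest p. Ppip5k2, Susd6, Gin1, Lrba and Pag1 dropped out, with adjusted p of 0.322 to 0.341 in limma. Among the genes that took their places were Cln8 (−0.40), Soga1 (−0.45), Slc39a6 (−0.43) and Lbr (−0.49), with adjusted p of 0.196 to 0.256 in limma. By gene span, Arhgef3, Ppip5k2, Susd6, Atp7a, Lrba, Pag1 and Soga1 lay in the longest class. The others named in this paragraph lay in the class next to it.

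Markers of the circadian clock set 1 library of each group apart. Dbp, a clock output gene, stood at 2.27 TPM in vehicle replicate 1 and 9.12 TPM in mixture replicate 1, against 37.2 to 74.7 and 50.1 to 102 TPM in the other 5 livers of each group. Arntl, which peaks opposite to Dbp, was highest in the same livers, at 11.7 and 8.58 TPM. Without vehicle replicate 1, Cyp1a1, Cyp1a2, Htatip2 and Cyb5a were called, and Slc46a3 stood at 0.63 (limma adjusted p = 0.105).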

How the data were processed

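Per the labels' protocols, the RNeasy plus mini kit gave poly(A) RNA from 48 livers, and Azenta made the libraries. The submitters' processing notes name FastQC, Trimmomatic 0.36, STAR 2.5.2b and DESeq2 with the GRCm38 build, in no order. None of the sources used here says how reads were counted, or with which annotation and strand setting. TPM per library, without pooling, is what the authors deposited. These values keep no depth, so no intervals were computed and no count test was used.

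Log2(TPM + 1) entered limma 3.58.1 (R 4.3.3, intensity trend), in 1 model of 8 group means over 48 libraries (40 residual degrees of freedom), for the 13580 genes at 1 TPM or more in at least 6 of the 12 LFD female libraries. Adjustment was by Benjamini-Hochberg at 0.05. "Without replicate 3" leaves that library out of both groups. Log2 differences understate changes of low genes. Nothing in the labels gives a batch, and p-values measure only how these libraries, labelled as replicates, vary. Of the names, 174 were blank and 191 shared, and identifiers replaced them.

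The comparison, the 50 gene lists and the genes named were chosen with earlier results of these data known. Named were called genes, all AhR targets, the 8 higher and 8 lower genes with the smallest p with and without replicate 3, and up to 4 members of other lists with the smallest p without replicate 3. Others are named for their role or after their values were seen. Some genes that these rules name are not reported here. Lists overlap in part. Alternatives covered TMM scaling (30% of ratios and 5% of levels trimmed at each end), rescaling without muscle, adrenal and mitochondrial genes, filters, a pseudocount of 0.1, fits of the 12 or 10 libraries alone, array weights, robust moderation, a replicate block and leaving out each library. Leaving out the 3 libraries with the most muscle transcripts was chosen after seeing the data. The procedure was tested on simulated data with independent noise for each gene. They held no transcripts of other tissues and no shift by gene span, so the test does not cover these. Gene spans came from GENCODE M21 (99.8% of genes) and promoters from RefSeq, both on GRCm38.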

Additional observations from a re-analysis of the deposited data

Results flagged for a closer look

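In groups of 6 libraries, 134 sets of values were checked for a library apart from the other 5, and 17 were found. The nominal rate of the check, about 1 in 20, holds for independent, normally distributed values. These sets were unlogged TPM and sums of related genes, so the count of 17 cannot be read against that rate. By list sums, replicate 3 stood apart for skeletal muscle genes in both groups (11139 TPM in vehicle, 2344.7 TPM in mixture). In mixture replicate 3 the same held for adrenal cortex genes (2118 TPM), adrenal medulla genes (68.5 TPM, next 41.3), adipocyte genes (1044.7 TPM, next 462) and the number of genes at 1 TPM (14713). Vehicle replicate 3 was apart for mesothelial and smooth muscle genes (45.7 TPM, next 23.6). Kidney genes set apart vehicle replicate 2 (27 TPM) and mixture replicate 4 (29.8 TPM), and Kupffer cell genes vehicle replicate 5 (2336.9 TPM, next 1310).

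Among single genes, vehicle replicate 3 was apart for Cystm1 (11.9 TPM, highest), Tmem86b (81.5 TPM, highest), Dusp1 (230 TPM, highest) and Rabggta (22.1 TPM, lowest). Vehicle replicate 1 was lowest for Htatip2 (23.8 TPM), vehicle replicate 5 highest for Srebf1 (162 TPM) and mixture replicate 5 highest for Susd6 (45.6 TPM). Between groups, the effect of the mixture on Cyp1a1 was larger in LFD than in HFD females by 3.75 on the log2 scale (limma interaction adjusted p = 2.38e-12).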

How the results depend on the processing

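Across 24 alternatives, Cyp1a1, Cyp1a2 and Htatip2 were called in each, Cyb5a in 20, BC025446 in 13, Slc46a3 in 10, Gm21049 in 7 and Rabggta in 6. The count of 8 called genes became 3 with TMM scaling, 4 with only the 12 libraries (3 higher, 1 lower), 4 with only the 10 without replicate 3, 4 without replicate 3 of both groups and 4 without the 3 libraries with the most muscle transcripts. Leaving out 1 library gave 4 to 12 called genes. It was 4 without vehicle replicate 1, 3 or 6 or mixture replicate 2, and 5 without mixture replicate 4 or 6. Without a filter on low values 6 genes were called and 2643 stood at an unadjusted p under 0.05, in place of 1385. Robust moderation gave 8 and array weights gave 10. The diet difference stayed at 1 gene and the sex difference at 0 in every alternative run. Leaving out 1 library gave 0 to 5 lower endothelial genes in place of 2, 1 to 3 higher and 0 to 3 lower AhR complex genes in place of 3 and 2, and 1 to 3 in each direction for growth arrest genes. The causes were not tested.

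Among the genes recomputed, signs reversed only for uncalled AhR targets near 0. Leaving out each library gave log2 differences of −0.12 to 0.18 for Cd36 (−0.00056 with array weights), −0.22 to 0.37 for Cyp2a5, −0.26 to 0.015 for Cystm1 and −0.19 to 0.026 for Tiparp.

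Replicate numbers are shared between the groups, and same-numbered livers had correlated deviations over 0.1 in 4 of 6 pairs (−0.03 to 0.44). No label ties these numbers to a litter or batch, so the main fit did not take them as a pairing. With the replicate block 8 genes were called, 6 of them shared with the fit without it, and Rabggta and Gm21049 were not among them. Of the vehicle livers, those numbered 1 and 3 correlated best with their own number. TPM keeps no depth, so the precision of low genes is unknown.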
